A study of Mus musculus with 3 samples.

Results

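The genes of the enzymes that make heme were followed in mandibular condyles of 4-month-old mice. The members are the 8 listed genes Alas1, Alas2, Alad, Uros, Urod, Cpox, Ppox and Fech, found by symbol in a table of 26970 genes, and all 8 were present once. The table holds 1 RNA sequencing library for WT (wild type), 1 for Dspp+/- and 1 for Dspp-/-, where Dspp is globally knocked out on a C57BL/6 background in 1 or both alleles. Tissue of 3 animals was pooled for WT and for Dspp+/-, and the number of animals behind Dspp-/- is not given in the sources used here. All groups share the age and the tissue. For WT and Dspp+/-, the paper describes condyles dissected with cartilage and the bone under it kept joined, and it does not name Dspp-/- there. The sample descriptions speak of triplicates, but the table has a single value per gene and genotype. Without replicates, nothing could be tested between genotypes, and every difference described is that between single libraries. The intervals are 95% Clopper-Pearson intervals on sequenced fragments, which cover counting error only and not the spread between mice.

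Heme is an iron-bearing ring that hemoglobin, the cytochromes of the respiratory chain, catalase and peroxidases carry. Its synthesis starts in the mitochondrion, where an aminolevulinate synthase joins glycine to succinyl-CoA, continues in the cytosol, and ends in the mitochondrion, where iron is inserted. The first step has a pair of isoforms: Alas1 is used in all tissues and Alas2 in developing red cells. In bone, red cell precursors sit in the marrow spaces, so a condyle with its subchondral bone can hold both forms.

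Levels are given as FPKM, fragments scaled by exon length and by library depth, which allows genes of different length to be compared. The exon length merges the exons of all annotated transcripts of a gene, and the order of genes within a library depends on it. The libraries held 20241576 (WT), 23613621 (Dspp+/-) and 22253158 (Dspp-/-) fragments, recovered from the values. The share of summed FPKM in mitochondrially encoded genes was 25.0% for WT, 36.9% for Dspp+/- and 37.3% for Dspp-/-, and FPKM makes no correction for such a shift. Cartilage and bone markers were present in all libraries, with Col2a1 at 761, 94.2 and 308 FPKM and Col1a1 at 6675, 1719 and 3610 FPKM in WT, Dspp+/- and Dspp-/-. The genotypes are taken from the labels, as Dspp was not analysed here.

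The upstream sequences of the members are shown first for Alas2, the member furthest above WT, for Cpox, whose window held the most GATA words, and for Alas1, the isoform set against Alas2. RefSeq promoter windows on GRCm38.p6, from 250 bases before to 50 bases after a start site, were searched on both strands for GATA words and an NRF1 word. A GATA word is GATAA or its variant ending in G in place of the last A, each with A or T in front, which GATA factors such as GATA1 of red cells bind. The NRF1 word is GCGCA followed at once by its reverse complement, which NRF1, a regulator of mitochondrial genes, binds. GATA words may overlap one another and were then each counted. The Alas2 stretch is chrX:150547167-150547374 on the plus strand and ends 42 bases before the start site. The Cpox stretch is chr16:58669958-58670207 on the plus strand and ends at the start site. The Alas1 site of 30 bases is chr9:106247906-106247935 on the minus strand. Capitals mark the words found, which for GATA read on the strand opposite the gene.
Alas2: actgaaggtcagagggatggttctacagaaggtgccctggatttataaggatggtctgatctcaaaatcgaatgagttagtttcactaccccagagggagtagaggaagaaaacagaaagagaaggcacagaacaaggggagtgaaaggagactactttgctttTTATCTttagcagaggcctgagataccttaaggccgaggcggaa
Cpox: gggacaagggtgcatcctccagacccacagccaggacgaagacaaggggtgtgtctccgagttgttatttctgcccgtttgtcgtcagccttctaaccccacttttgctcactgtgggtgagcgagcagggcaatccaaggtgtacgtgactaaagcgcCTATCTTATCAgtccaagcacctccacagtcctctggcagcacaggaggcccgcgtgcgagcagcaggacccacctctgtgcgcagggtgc
Alas1: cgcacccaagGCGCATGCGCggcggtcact

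The Alas2 window held 1 GATA word, 86 bases before the start site. The Cpox window held 3 GATA words, of which a pair starts 91 and 86 bases before the start site and shares a base. Of the 7 members searched, 3 had a GATA word in a window (Alas2, Cpox and, in 1 of its 2 windows, Uros) and 4 had none (Alas1, Alad, Urod and Ppox). Counted by window, 3 of their 10 windows held a GATA word. Among all 32851 windows of the same length, 29.8% held at least 1 such word, so the members' share was near the background. The NRF1 word was found for Alas1, 195 bases before the more downstream of its 2 starts, and 0.971% of all windows held it. A word in a window is a match of letters and was not tested as a binding site.

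All 8 members were above WT in Dspp+/-, where 56.3% of all genes compared were, and 7 of 8 in Dspp-/-, where 50.7% were. Alas2 stood out by size, at 5.78 times WT in Dspp+/- and 5.52 times in Dspp-/-, while the other members lay between 1.32 and 2.66 times WT in Dspp+/- and between 0.988 and 1.98 times in Dspp-/-. On the log2(FPKM + 1) scale, which shrinks the change of low genes, 3 of 8 members (Alas2, Cpox and Alad) were at least 2-fold higher in Dspp+/-, where 4.88% of the 13026 genes compared were. In Dspp-/-, 1 of 8 (Alas2) was at least 2-fold higher, against 4.05% of all genes. No member was at least 2-fold lower, a call made for 2.86% of genes in Dspp+/- and 1.37% in Dspp-/-. The members had a median log2 ratio to WT of 0.82 (Dspp+/-) and 0.61 (Dspp-/-), beside 0.06 and 0.01 over all genes compared. Over all genes, 527 were at least 2-fold higher and 179 lower in Dspp-/-, a split that scaling to 8 housekeeping genes moved to 415 and 305. The comparisons of both mutants use the same WT library. In such whole tissue, more cells of a type and more RNA per cell cannot be told apart.

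**Figure D1:**
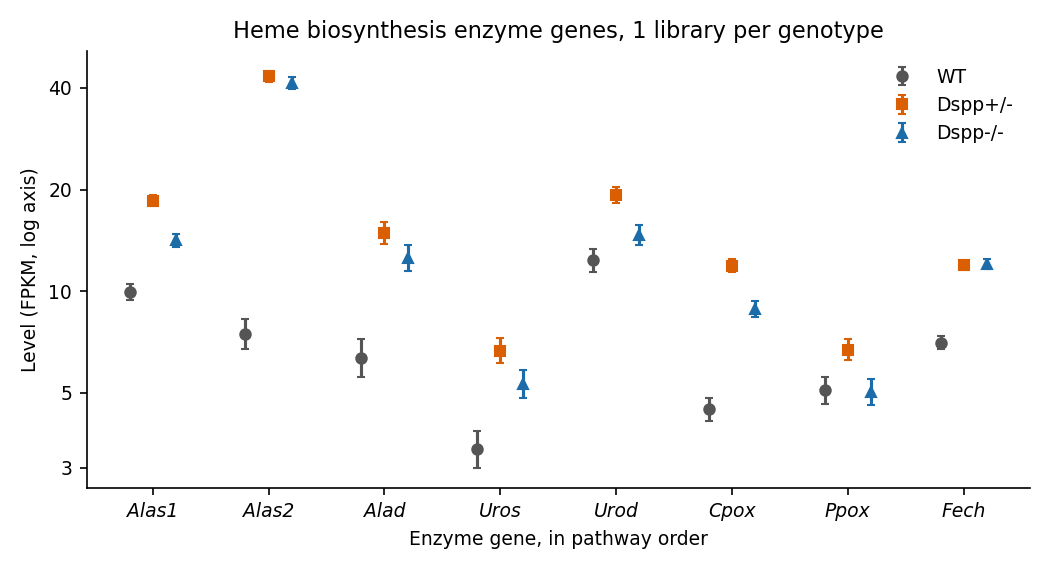
Level of each heme enzyme gene in FPKM (log axis) in pathway order, with 1 point per library and 95% counting intervals. Alas2 lies among the other members in WT, at 7.48 FPKM, and above all of them in the mutants, at 43.2 and 41.3 FPKM.

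Alas1 encodes the aminolevulinate synthase found in every tissue and lies at chromosome 9 from 106110654 to 106125853, minus strand, in the authors' table. It had 9.96 FPKM in the WT library, 18.5 in Dspp+/- and 14.2 in Dspp-/-. Relative to WT this is a fold of 1.86 (interval 1.74 to 1.99) for Dspp+/- and 1.42 (1.32 to 1.53) for Dspp-/-, so the mutant libraries were above WT and apart from each other by more than counting error.

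Alas2 encodes the red cell synthase, loss of which causes a sideroblastic anemia in humans, and lies at chromosome X from 149330371 to 149353634, plus strand. It had 7.48 FPKM in the WT library, 43.2 in Dspp+/- and 41.3 in Dspp-/-, from 364, 2453 and 2210 fragments. Both mutant libraries were far above WT and close to each other. Alas2 was thus 5.78 times WT (5.17 to 6.47) in Dspp+/- and 5.52 times (4.94 to 6.19) in Dspp-/-, and Alas2 was at percentile 99.5 and 99.6 of the log2 ratios of all genes compared. Of its exon length, 15.5% lies under exons of genes on the other strand, Apex2 and Mir3620, and the counting is not stated to use strand. Apex2 had 0.695, 0.935 and 1.01 FPKM in WT, Dspp+/- and Dspp-/-.

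Since Alas2 is X-linked, the X chromosome was checked beside it. Xist, the RNA of the inactive X, had 2 fragments in WT (0.00551 FPKM) and 28.5 and 26.5 FPKM in Dspp+/- and Dspp-/-, so its level moved with genotype. The sex of the animals is not given in the sources used here. The 411 other X-linked genes compared had medians of 0.07 and 0.13 for their log2 ratios in Dspp+/- and Dspp-/-. Genotype and what sets Xist apart cannot be told apart for Alas2, nor for any other gene compared with WT here, X-linked or not.

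Alad encodes the dehydratase that joins a pair of aminolevulinate molecules into porphobilinogen, the enzyme that lead inhibits. Alad, at chromosome 4 from 62427406 to 62438155, had 6.36 FPKM in the WT library, 14.9 in Dspp+/- and 12.6 in Dspp-/-. This was 2.34 times WT (2.01 to 2.72) in Dspp+/- and 1.97 times (1.69 to 2.31) in Dspp-/-.

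Uros encodes uroporphyrinogen III synthase, which closes the ring. Uros, at chromosome 7 from 133287972 to 133311801, was the least abundant member in WT at 3.41 FPKM, and had 6.68 in Dspp+/- and 5.32 in Dspp-/-. Its fold over WT was 1.96 (1.68 to 2.28) and 1.56 (1.33 to 1.83). Urod encodes the decarboxylase that acts next in the cytosol. Urod, at chromosome 4 from 116847162 to 116851610, was the most abundant member in WT at 12.4 FPKM, and had 19.3 in Dspp+/- and 14.7 in Dspp-/-. Its fold was 1.56 (1.41 to 1.72) for Dspp+/- and 1.18 (1.07 to 1.31) for Dspp-/-. Both genes were above WT in both mutants by more than counting error, and by less than Alas2. For Urod in Dspp-/- this depends on scaling, as its log2 ratio of 0.23 came to 0.082 when scaled to 8 housekeeping genes.

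Cpox encodes coproporphyrinogen oxidase, with which the pathway returns to the mitochondrion. Cpox, at chromosome 16 from 58490655 to 58537999, had 4.47 FPKM in the WT library, 11.9 in Dspp+/- and 8.87 in Dspp-/-. Its fold was 2.66 (2.43 to 2.92) for Dspp+/- and 1.98 (1.80 to 2.19) for Dspp-/-, with intervals that overlap those of Alad, and its mutant libraries were apart from each other by more than counting error. Ppox encodes protoporphyrinogen oxidase, partial loss of which causes variegate porphyria in humans. Ppox, at chromosome 1 from 171103563 to 171108760, had 5.10 FPKM in the WT library, 6.72 in Dspp+/- and 5.04 in Dspp-/-. Its fold was 1.32 (1.17 to 1.49) in Dspp+/-, the smallest of the members, and 0.988 (0.869 to 1.12) in Dspp-/-, which was not distinguishable from WT at this depth and had a log2 ratio of 0.076 when scaled without mitochondrially encoded genes. For Ppox, 17.5% of the exon length lies under B4galt3 on the other strand, which had 1.97, 2.56 and 1.69 FPKM in the same order of libraries.

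Fech encodes ferrochelatase, which puts iron into the ring. Fech, at chromosome 18 from 64585985 to 64623322, had 7.05 FPKM in the WT library, 11.9 in Dspp+/- and 12.0 in Dspp-/-. The fold came to 1.69 (1.60 to 1.79) for Dspp+/- and 1.71 (1.62 to 1.80) for Dspp-/-. The mutant libraries were thus above WT and within counting error of each other.

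**Figure D2:**
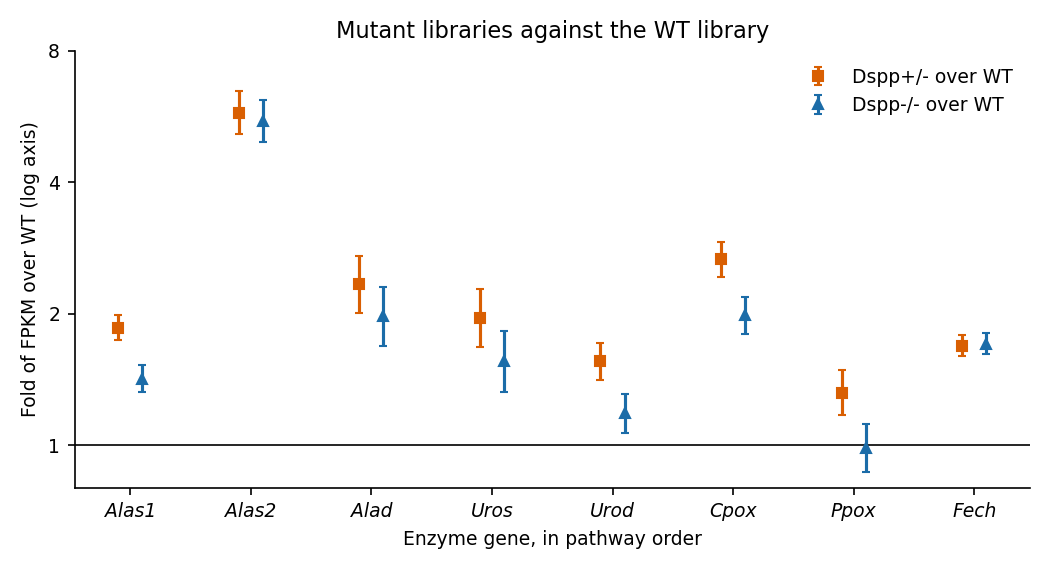
Fold of FPKM over the WT library for each member in Dspp+/- (squares) and Dspp-/- (triangles), on a log axis, with 95% counting intervals and a line at 1. Alas2 is at 5.78 and 5.52, every other member is at or below 2.66, and Ppox in Dspp-/- is at 0.988.

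In WT the order of levels was Urod, Alas1, Alas2, Fech, Alad, Ppox, Cpox and Uros. Within that order the intervals of Alas2 and Fech, of Fech and Alad, and of Ppox and Cpox overlapped, so these neighbours were not separated by counting error. In Dspp+/- the order was Alas2, Urod, Alas1, Alad, Fech, Cpox, Ppox and Uros, where Urod and Alas1, Fech and Cpox, and Ppox and Uros overlapped. In Dspp-/- the order was Alas2, Urod, Alas1, Alad, Fech, Cpox, Uros and Ppox, where Urod and Alas1, Alas1 and Alad, Alad and Fech, and Uros and Ppox overlapped. Alas2 was therefore the most abundant member in both mutant libraries and the third in WT. The summed level of the 8 genes was 56.2 FPKM in the WT library, 133 in Dspp+/- and 114 in Dspp-/-. Alas2 made up 46.5% of the summed difference from WT in Dspp+/- and 58.6% in Dspp-/-.

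In FPKM, the isoforms of the first step changed order between WT and the mutants. The ratio of Alas2 to Alas1 in FPKM was 0.751 (0.667 to 0.845) in WT, 2.33 (2.21 to 2.46) for Dspp+/- and 2.92 (2.75 to 3.10) for Dspp-/-. The 3 intervals do not overlap, so the ratio was highest in Dspp-/- and lowest in WT by more than counting error. Against the WT ratio it was 3.11 times as high in Dspp+/- and 3.89 times in Dspp-/-. The summed level of both isoforms was 17.4 FPKM in the WT library, 61.8 in Dspp+/- and 55.5 in Dspp-/-, of which Alas2 held 42.9%, 70.0% and 74.5%. The ratio does not depend on how the libraries are scaled, since both genes share a library. In fragments, not divided by length, Alas1 exceeded Alas2 in WT and in Dspp+/-. The exon length of Alas1, merged over annotated transcripts, is 6174 bases, against 2403 for Alas2. The order of the isoforms in Dspp+/- therefore depends on these lengths, and no other lengths were tried. The change of the ratio against WT does not depend on them. No 100-base sequence of Alas1 occurs in transcripts of Alas2, so reads of this length could be told apart. Of the Alas1 and Alas2 sequences of that length, 3.97% and 8.88% occur in a transcript of another gene, all of them in the genes on the opposite strand.

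**Figure D3:**
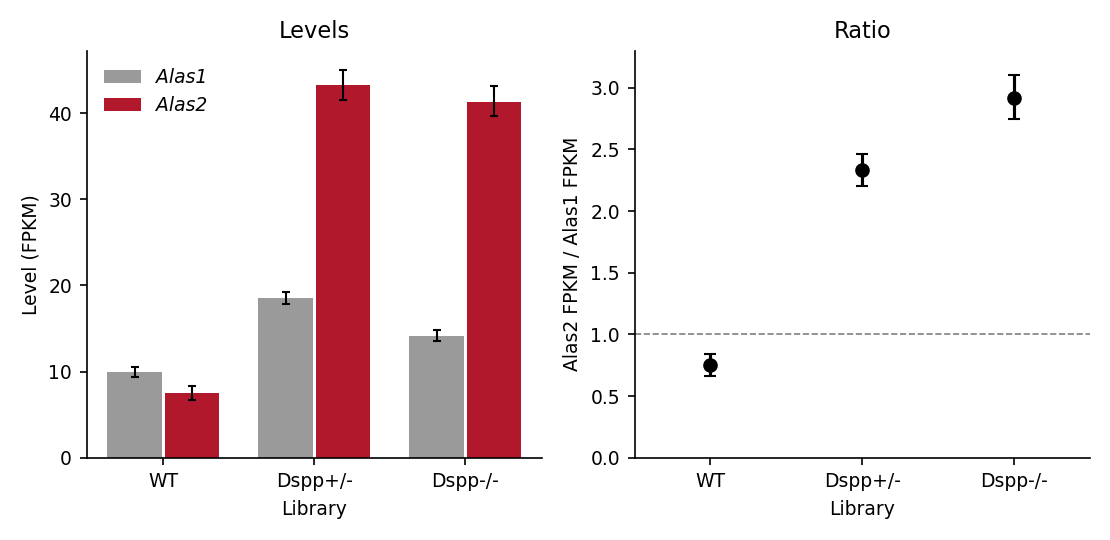
Left, FPKM of Alas1 (grey) and Alas2 (red) in each library, and right, the ratio of Alas2 to Alas1, all with 95% counting intervals. The ratio is below the dashed line at 1 in WT (0.751) and above it in Dspp+/- (2.33) and Dspp-/- (2.92).

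Set directly against each other, Dspp+/- was above Dspp-/- for 7 of 8 members, and for 55.3% of all genes compared. The interval of the ratio lay above 1 for 6 members, Alas1, Alad, Uros, Urod, Cpox and Ppox, with ratios from 1.18 (Alad, 1.05 to 1.33) to 1.34 (Cpox, 1.25 to 1.44). The share of all genes with such an interval was not computed, so this count cannot be called particular to the members. For Alas2 the ratio was 1.05 (0.987 to 1.11) and for Fech 0.990 (0.946 to 1.04), both within counting error of 1. These ratios depend on scaling. Scaled to housekeeping genes, Alas2 was at 1.096 (1.03 to 1.16), above 1, and with upper-quartile scaling Fech was at 0.9498 (0.908 to 0.994), below 1. The median log2 ratio of Dspp+/- to Dspp-/- was 0.32 for the members and 0.04 for all genes compared.

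Red cell transcripts moved with the members, and their part in the result was not tested. The adult globin genes Hba-a1, Hba-a2, Hbb-bs and Hbb-bt were all at least 2-fold higher in both mutants, with summed levels of 895 FPKM in the WT library, 3624 in Dspp+/- and 3524 in Dspp-/-. Hbb-bs had 425, 1794 and 1886 FPKM and Hba-a1 had 395, 1577 and 1344 FPKM in WT, Dspp+/- and Dspp-/-. The alpha-globin copies are near-identical, as are the beta-globin copies, so fragments could have been split between them. Of 15 erythroid markers, 13 were at least 2-fold higher in Dspp+/- and 13 in Dspp-/-, and their summed level was 17.7, 193 and 152 FPKM. In WT none was at 0, but 12 of 15 were under 1 FPKM and 3 (Rhd, Hemgn and Cldn13) had no more than 3 fragments. Slc4a1, the red cell anion exchanger, had 1.01, 54.2 and 40.5 FPKM. Sptb and Ank1, which skeletal muscle also expresses, were the most abundant in WT at 9.88 and 4.42 FPKM, and neither was at least 2-fold higher on the log2(FPKM + 1) scale.

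Per 1000 FPKM of globin, Alas2 had 8.37 FPKM in the WT library, 11.9 in Dspp+/- and 11.7 in Dspp-/-, which is 1.43 and 1.40 times WT. Every other member was lower per globin in the mutants than in WT. Cpox had the highest of these relative levels, at 0.658 times WT in Dspp+/- and 0.504 times in Dspp-/-, and Ppox the lowest, at 0.326 and 0.251 times. Against the summed erythroid markers, Alas2 too was lower, at 0.530 times WT in Dspp+/- and 0.642 times in Dspp-/-, and the others lay between 0.115 and 0.244 times WT. Sptb and Ank1 made up most of the WT marker sum, and without them the sum of the other 13 markers came to 3.39 FPKM for WT, 165 for Dspp+/- and 133 for Dspp-/-, and Alas2 was at 0.119 and 0.141 times WT. By these sums, Alas2 therefore differed from WT by more than the globins did and by less than the erythroid markers did. The order depends on the scale. With a pseudocount of 5 (FPKM + 5), Alas2 had log2 ratios of 1.95 in Dspp+/- and 1.89 in Dspp-/-. The erythroid markers then had lower medians, 1.282 and 1.201, and the globins had 1.85 and 1.91. It also differs between genes, as Sptb and Ank1 had a lower fold than Alas2. In Dspp-/-, the fold interval of Hbb-bt (4.36 to 5.56) overlapped that of Alas2 (4.94 to 6.19).

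**Figure D4:**
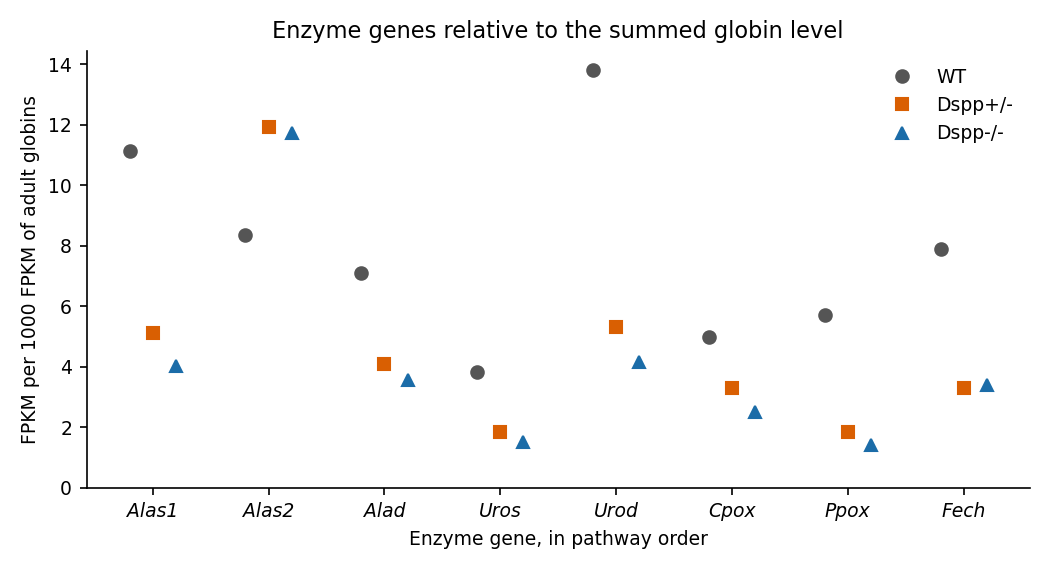
Level of each member per 1000 FPKM of summed adult globins (Hba-a1, Hba-a2, Hbb-bs and Hbb-bt) in each library, in pathway order. Alas2 is the 1 member with a higher value in the mutants (11.9 and 11.7) than in WT (8.37).

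Genes that feed the pathway were compared by lists. Of 9 genes compared for mitochondrial transport of heme precursors, 2 were at least 2-fold higher in Dspp+/- and 1 in Dspp-/-. Abcb6, also listed, averaged 0.149 FPKM and was not compared. The list also holds Clpx and Pgrmc1, which are not transporters of such precursors. Its medians on the log2 scale were 0.37 and 0.10, which are the values of Clpx. The latter median was -0.040 when scaled to housekeeping genes. Slc25a37 (mitoferrin 1), the iron importer of red cell precursors, had 6.63 FPKM in the WT library, 31.2 in Dspp+/- and 26.4 in Dspp-/-, a fold of 4.71 (4.36 to 5.08) and 3.98 (3.68 to 4.30). Slc25a28 (mitoferrin 2), its form in other tissues, had 7.60, 6.86 and 6.34 FPKM. The fold of this general form was 0.902 (0.803 to 1.01) for Dspp+/-, within counting error of WT, and 0.834 (0.740 to 0.940) for Dspp-/-. Abcb10, a mitochondrial transporter needed for red cell heme synthesis, had 6.56, 15.5 and 13.0 FPKM. Tmem14c and Pgrmc1, the most abundant in WT, had 40.2 and 39.3 FPKM there, 52.8 and 32.2 in Dspp+/-, and 41.9 and 40.7 in Dspp-/-, where both were within counting error of WT. Slc25a38, the glycine importer, had 5.93, 8.39 and 7.48 FPKM.

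Among 10 genes that supply succinyl-CoA and glycine, a single gene passed 2-fold upward in Dspp+/- and none did in Dspp-/-, with medians of 0.55 and 0.37. This gene was Shmt1, the cytosolic serine hydroxymethyltransferase, with 0.700, 2.50 and 1.92 FPKM. Ogdh, a subunit of the citric acid cycle enzyme that makes succinyl-CoA, had 78.6, 130 and 98.5 FPKM. None of 9 iron-sulfur cluster assembly genes was 2-fold higher or lower in either mutant, with medians of 0.24 and 0.02, of which the latter was -0.12 when scaled to housekeeping genes. Iscu, the scaffold protein gene, had 26.3, 26.9 and 21.5 FPKM, and Isca1 had 13.2, 19.4 and 17.3 FPKM.

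None of 8 genes for heme export and breakdown passed 2-fold on the log2(FPKM + 1) scale, with medians of 0.17 and 0.22. Hmox1, the inducible heme oxygenase, had 6.72, 14.4 and 11.6 FPKM, which was a fold of 2.15 (1.84 to 2.51) in Dspp+/- and a log2(FPKM + 1) ratio of 0.999, just under the 2-fold threshold. Flvcr2, of the family of heme exporter Flvcr1, went the other way with 2.43, 0.919 and 1.80 FPKM, a fold of 0.379 (0.285 to 0.499) in Dspp+/- and a log2(FPKM + 1) ratio of -0.84. Hmox2, the constitutive heme oxygenase, had 12.5, 12.0 and 10.2 FPKM. Slc48a1, a heme transporter and the most abundant of the list in WT, had 28.5, 28.8 and 23.5 FPKM. Blvrb, a biliverdin reductase abundant in red cells, had 5.04, 9.27 and 7.32 FPKM, and Blvra had 5.80, 6.06 and 5.99 FPKM.

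Regulators of red cell heme synthesis were higher in the mutants, with 5 of 8 at least 2-fold higher in Dspp+/- and 4 in Dspp-/-, and medians of 1.57 and 1.17. These medians were below 2-fold with a pseudocount of 5 (0.88 and 0.57) and with genes kept from a mean of 5 FPKM upward (0.88 and 0.67). Gata1, the red cell GATA factor, had 0.142, 4.01 and 2.36 FPKM from 7 fragments in WT. Klf1, which activates globin and heme genes, had 0.290, 10.6 and 6.30 FPKM. Nfe2 had 1.11, 10.4 and 8.81 FPKM, Tal1 had 1.24, 7.19 and 5.24 FPKM, and Zfpm1, the partner of Gata1, had 6.81, 17.9 and 13.2 FPKM. Eif2ak1, the heme-regulated kinase, had 6.81, 10.01 and 9.89 FPKM. Aco1 and Ireb2, the iron regulatory proteins and the most abundant of the list, had 8.90, 7.59 and 8.59 FPKM and 8.25, 8.85 and 10.7 FPKM.

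Of 5 regulators of Alas1 compared, none was at least 2-fold higher on the log2(FPKM + 1) scale. Nr1d1 was at least 2-fold lower on that scale in Dspp+/-, with a log2 ratio of -1.01 that missed the threshold with a pseudocount of 5 (-0.92), without mitochondrially encoded genes (-0.90) and without globin, immunoglobulin and muscle genes (-0.999). The medians were 0.16 and 0.21. Nr1d1 (Rev-erb alpha), a clock repressor of Alas1, had 52.6 FPKM in the WT library, 25.5 in Dspp+/- and 60.9 in Dspp-/-. Its fold was 0.486 (0.458 to 0.514) for Dspp+/- and 1.16 (1.11 to 1.21) for Dspp-/-. Ppargc1a, a coactivator that raises Alas1, had 2.62, 5.74 and 4.75 FPKM, a fold of 2.19 (1.93 to 2.48) in Dspp+/- with a log2(FPKM + 1) ratio of 0.89. Bach1, a repressor that heme releases from DNA, had 10.01, 11.3 and 11.9 FPKM, and Nrf1 had 2.27, 2.87 and 2.50 FPKM.

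**Figure D5:**
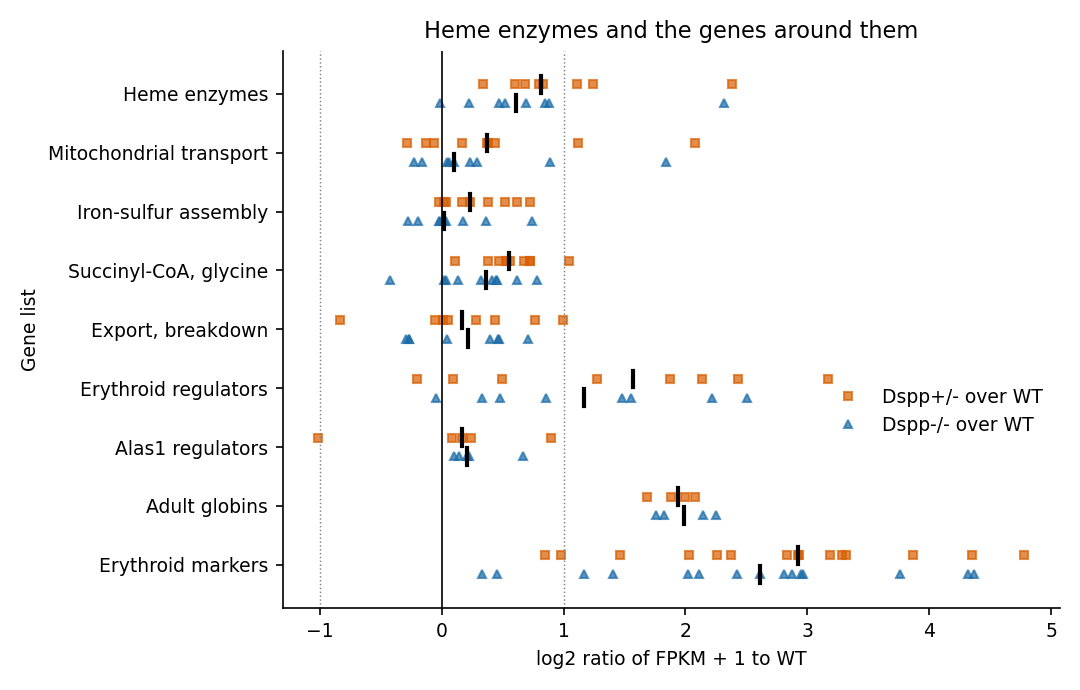
log2 ratio of FPKM + 1 to WT for the genes of each list that were compared, in Dspp+/- (squares) and Dspp-/- (triangles), with black ticks at the medians and dotted lines at 2-fold. The heme enzymes have medians of 0.82 and 0.61, the iron-sulfur list 0.24 and 0.02, and the erythroid markers 2.93 and 2.61, which were 1.282 and 1.201 with a pseudocount of 5 and 5.06 and 4.68 with 0.1.

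Proteins other than hemoglobin that carry heme gave 3 of 14 genes compared at least 2-fold higher in each mutant. The medians of this list were 0.49 and 0.05, of which the latter was -0.092 when scaled to housekeeping genes. The 3 were Mpo (3.23, 109 and 38.3 FPKM) and Epx (0.614, 15.6 and 16.1 FPKM), peroxidases of neutrophil and eosinophil granules, and Cybb (7.08, 28.8 and 33.9 FPKM), the phagocyte oxidase. Mb, myoglobin, and Cyc1, cytochrome c1, were the most abundant in WT at 1204 and 118 FPKM, and had 1763 and 165 in Dspp+/- and 944 and 113 in Dspp-/-. Cat, catalase, had 41.2, 78.1 and 61.5 FPKM.

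Among markers of other cells of the condyle, some rose as the members did, others fell or stayed near WT, and their part was not tested. All 11 neutrophil markers were at least 2-fold higher in both mutants, with summed levels of 619, 2682 and 3631 FPKM. S100a9, a calcium-binding protein of neutrophils and the most abundant of them, had 232, 916 and 1339 FPKM. Of 10 cell cycle genes, 10 were at least 2-fold higher in Dspp+/- and 8 in Dspp-/-, with sums of 20.5, 88.9 and 85.5 FPKM. Mki67, a gene of dividing cells, had 4.34, 26.7 and 30.5 FPKM. None of 10 macrophage and none of 6 endothelial markers passed 2-fold in either direction, with sums of 192, 166 and 167 FPKM and of 131, 147 and 143 FPKM. Of 9 osteoblast markers, 8 were at least 2-fold lower in Dspp+/- and 2 in Dspp-/-, with sums of 15892, 4378 and 8810 FPKM. Of 8 chondrocyte markers compared, 6 were at least 2-fold lower in each mutant, with sums of 1621, 453 and 711 FPKM. Skeletal muscle markers summed to 10661, 14664 and 12109 FPKM, with 1 of 7 at least 2-fold lower in Dspp+/-, and Tnnc2 was at 0 in WT and Dspp-/-. Of 5 adipocyte markers, 1 was at least 2-fold lower in Dspp+/- and 4 were at least 2-fold higher in Dspp-/-, with sums of 55.0, 49.7 and 126 FPKM. The sums of macrophage, chondrocyte, muscle and adipocyte markers each include 1 more listed gene, which was not compared.

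Other genes were ranked by how close their pair of log2 ratios, over 3 libraries, came to those of each isoform. The 5 nearest to Alas2 were Nfe2, Cxcr2, Parvg, Csf3r and F630028O10Rik, at distances from 0.112 to 0.200. Cxcr2 and Csf3r are receptors of neutrophils, with 1.65, 12.6 and 13.6 FPKM and with 4.24, 28.8 and 22.5 FPKM in WT, Dspp+/- and Dspp-/-. The 5 nearest to Alas1 were Psd4, Fmo2, Slc16a6, Fes and Smpx, at distances from 0.0161 to 0.0395. Smpx, a gene of striated muscle, had 36.7, 64.4 and 51.1 FPKM, and Fmo2 had 10.96, 20.1 and 15.5 FPKM.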

How the data were processed

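RNA was sequenced from condyle tissue, with pooling described for WT and Dspp+/-, as 150-base read pairs from a poly(A) kit. The authors deposited 1 table of values per gene and genotype, without a unit name, which were read as FPKM because value times exon length gave whole fragments. Of the values under 100 fragments, 98.6% to 98.7% lay within 0.05 of a whole number. Per the submitters' processing notes, FastQC 0.11.5, HISAT2 2.1.0, StringTie 1.3.3b and DESeq 1.28.0 were used, with the build named as hg38, a human build. The positions are those of mouse chromosomes and not GRCm38 positions, and their build is not given in the sources used here. FPKM is relative to the whole library, so its values shift with composition.

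Fragments were recovered with merged exon lengths of GENCODE M21. For Ppox they were 0.10 to 0.16 below a whole number and were rounded. Alternatives were other pseudocounts, filters, scalings and thresholds. Recovery was run on simulated data of 26652 genes, where 100% of fragment numbers came back. The simulation used the same exon lengths, so it did not test whether these match the ones behind the deposited values. Genes whose FPKM averaged at least 1 were compared as log2(FPKM + 1) ratios to WT. The study's Kruskal-Wallis test cannot be entered by 1 library per genotype, so no p-value is given. Named are all members, the genes of each pathway list at least 2-fold apart from WT, the 2 most abundant in WT, and the 5 nearest in pattern to Alas2 and to Alas1. For the marker lists other than red cells, counts and sums are given in place of names. Other list genes with values were chosen after their values were seen. Some genes that the rule names are not reported here. The members and lists were chosen with earlier results of these data known. Nr1i2 and Icam4 were not analysed here. Promoter sequences are RefSeq, GRCm38.p6, found for all 7 members searched, and Fech was not searched. Computations ran in Python 3.11.15 with scipy 1.17.1, pandas 2.3.3 and numpy 2.4.6, and plots in matplotlib 3.10.9.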

Additional observations from a re-analysis of the deposited data

How the results depend on the processing

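Alternatives were other pseudocounts, filters, thresholds and scalings, each changed alone, and 0 members were lower than WT by the threshold under every one run. Against 3 members at least 2-fold higher in Dspp+/-, a pseudocount of 5 gave 1, a 4-fold threshold gave 1 and a 1.5-fold threshold gave 7. Against 1 in Dspp-/-, a 1.5-fold threshold gave 4. A pseudocount of 5, which shrinks ratios by construction, gave log2 ratios of 1.95 and 1.89 for Alas2, 0.65 and 0.36 for Alas1 and 0.57 and 0.43 for the median of the 8 members in Dspp+/- and Dspp-/-. For Alas1, scaling to 8 housekeeping genes gave 0.32 in Dspp-/-, and scaling without mitochondrially encoded genes gave 0.94 in Dspp+/-. That last scaling turned the Ppox log2 ratio in Dspp-/- to 0.076. In fragments, not divided by length, the Alas2 to Alas1 ratio was 0.292 in WT, 0.908 in Dspp+/- and 1.14 in Dspp-/-, as the longer exons of Alas1 give more fragments.

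In Dspp-/-, the iron-sulfur list's median turned to -0.0068 with median-ratio, -0.0053 with upper-quartile and -0.12 with housekeeping scaling, and housekeeping scaling also turned the medians of mitochondrial transport (-0.040), other heme proteins (-0.092), macrophage (-0.0028) and muscle markers (-0.040). With genes kept from a mean of 5 FPKM upward, the macrophage median turned to -0.18 in Dspp-/- and the adipocyte median to 0.14 in Dspp+/-. The cause was not tested. Chosen after seeing the data, leaving Sptb and Ank1 out of the erythroid sum moved Alas2 per that sum from 0.530 and 0.642 to 0.119 and 0.141 times WT, as these genes hold most of the WT sum, and housekeeping scaling took the members whose Dspp+/- to Dspp-/- interval lay above 1 from 6 to 7. Over all genes, 636 higher and 373 lower in Dspp+/- became 971 and 605 with a pseudocount of 0.1, 185 and 156 with 5, 281 and 272 from a mean of 5 FPKM, 1501 and 1166 at 1.5-fold and 124 and 24 at 4-fold. In Dspp-/-, 527 and 179 became 836 and 363, 136 and 45, 228 and 110, 1152 and 1070, and 103 and 6 in that order, and 415 and 305 with housekeeping scaling. The scalings moved all genes by -0.16 to 0.12 on the log2 scale. No paired analysis was possible because each genotype has 1 library, and no replicate could be left out for the same reason.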
